A study of Mus musculus with 26 samples.

Results

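The Hox genes are homeobox transcription factor genes that stand side by side in 4 clusters, named HoxA to HoxD. They were chosen by name, and 38 of the 39 Hox genes in the GENCODE M21 annotation are described here, while 1 further Hox gene was not analysed here. The members were 10 genes of HoxA, 10 of HoxB, 9 of HoxC and 9 of HoxD. E14 mouse embryonic stem cells, a feeder-free line derived from an early mouse embryo, were either kept in leukemia inhibitory factor (LIF, the state called mESC+) or moved for 4 h to medium without LIF and with 1 µM retinoic acid (RA, the state called mESC−). Both states came from the same line after 48 h in medium with LIF, and mESC− differs from mESC+ in the loss of LIF and in the gain of RA together, so that the effects of both cannot be told apart. The values come from a comparison of 3 RNA-seq libraries per state, from 1 ATAC-seq library per state made from 75000 cells, and from a list of 327 regions whose predicted enhancer activity differed between the states.

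Within each cluster all member genes are transcribed in the same direction, and they carry paralog numbers from 1 at the 3′ end to 13 at the 5′ end. Genes with the same number in different clusters are descended from a common ancestor. In the embryo, genes of the 3′ end are switched on first and furthest to the front, in the hindbrain, and genes of the 5′ end later and further to the back, an order known as collinearity. RA is a well-known inducer of the 3′ genes. It acts through receptors that bind pairs of a 6-base half-site in tandem, separated by 1, 2 or 5 bases, and in stem cells the silent clusters are covered by Polycomb proteins.

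RA receptor repeats are shown first, since they recur in or near the clusters in nearly the same letters. Half-sites were AGGTCA or GGGTCA or AGTTCA or GGTTCA, read on both strands with no mismatch. The 4 Hox windows each ran from the first to the last member plus 100 kb on both sides. They held 39 such repeats in 1.28 Mb of GRCm38, or 30.4 per Mb against 20.2 per Mb over the genome. Of the 39 repeats, 8 lay inside a cluster and the others in the flanks, so the rates of the windows rest mostly on the flanks. Inside the clusters, 2 lay in the 98.5 kb of HoxA and 5 in the 174 kb of HoxB. HoxC held 0 in 116 kb and HoxD 1 in 96.8 kb. With the flanks, the rate was above the genome value in the windows of HoxA (46.9 per Mb) and HoxB (40.1). It was below that value in the windows of HoxC (19.0) and HoxD (13.5). These counts are small, and a difference from the genome was not tested. One form, GGTTCA followed after 5 bases by AGTTCA, was found 6 times in the windows, or 4.67 per Mb, and 397 times in the genome, or 0.15 per Mb. This form was singled out after the sequences were seen. For 5 of the 6 copies the nearest Hox start belongs to a member, and these copies are printed below with the half-sites in capitals, each in the direction in which its cluster is transcribed.
HoxA, chr6:52175533-52175549, minus strand: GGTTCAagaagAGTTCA
HoxB, chr11:96341236-96341252, plus strand: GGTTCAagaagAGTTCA
HoxB, chr11:96372776-96372792, plus strand: GGTTCAtagagAGTTCA
HoxC, chr15:103061714-103061730, plus strand: GGTTCAccgagAGTTCA
HoxD, chr2:74741540-74741556, plus strand: GGTTCAagcagAGTTCA

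The HoxA copy lies 10.7 kb upstream of the Hoxa2 start in an intron of the long Hoxa3 transcript and of Hoxaas3. The first HoxB copy, with the same 17 bases, lies 2.53 kb upstream of the Hoxb3 start in an intron of a longer Hoxb3 transcript. The second HoxB copy lies 7.02 kb downstream of the Hoxb1 start, beyond the gene and outside annotated transcripts. The HoxC copy lies 27.3 kb downstream of the Hoxc4 start, and the HoxD copy 5.03 kb downstream of the Hoxd3 start in a Hoxd3 intron. A match of letters is a description and does not show that a receptor binds there.

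In the RNA-seq comparison, 12 of the 38 Hox genes were higher in mESC− at an adjusted p under 0.05 in the authors' deposited DESeq2 table, and 0 were lower. All 12 belonged to HoxA (5 of 10) or HoxB (7 of 10), against 0 of 9 in HoxC and 0 of 9 in HoxD. By paralog number, 7 of 11 genes with numbers 1 to 4 rose, 3 of 11 with numbers 5 to 8, and 2 of 16 with numbers 9 to 13. That is 31.6% of the members, while 4.41% of all 21951 annotated protein-coding genes were higher by the same rule. The table holds only the 2189 genes with an adjusted p of up to 0.1. It lists 14 members, or 36.8%, against 9.04% of all protein-coding genes, and among all listed genes 49.8% were higher and 34.5% lower in mESC−. For the 24 members that are not listed, no level and no difference can be read, and not being listed does not show that they were unchanged. They are Hoxa6, Hoxa7, Hoxa11, Hoxa13, Hoxb7, Hoxb8, Hoxb9, Hoxc4, Hoxc5, Hoxc6, Hoxc8, Hoxc9, Hoxc10, Hoxc11, Hoxc12, Hoxd1, Hoxd3, Hoxd4, Hoxd8, Hoxd9, Hoxd10, Hoxd11, Hoxd12 and Hoxd13.

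**Figure D1:**
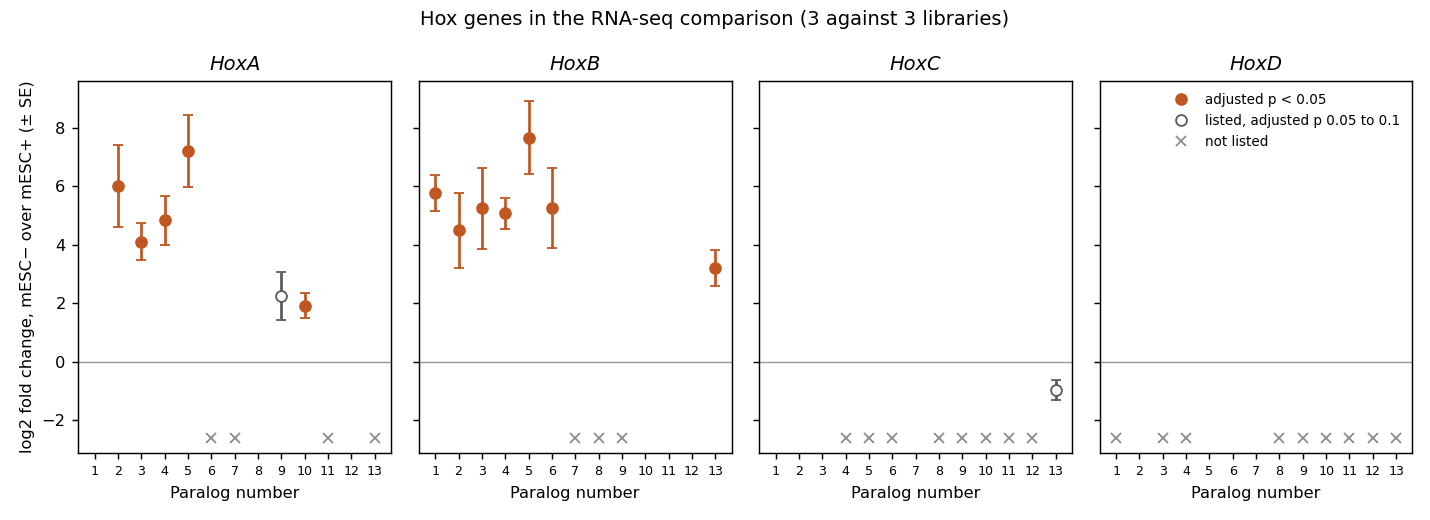
log2 fold change of each Hox gene (mESC− over mESC+, 3 against 3 libraries) by paralog number, 1 panel per cluster; bars are standard errors, filled points have an adjusted p under 0.05, open points are listed without passing it, and crosses at the lower edge mark genes that are not listed and have no value. Filled points sit in HoxA and HoxB, between 1.93 and 7.67.

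The rises were large at low counts. Over the 14 listed members the median log2 fold change was 4.96, beside 0.32 over all listed genes, and over the 12 that rose it was 5.16, beside 0.78 over all 1090 listed genes that were higher. The 178 genes that were higher with a mean normalized count in the range of these 12 members, the 12 included, had a median of 2.09. Mean normalized counts over the 6 libraries ran from 5.67 to 62.4 for the listed members, with a median of 18.5, against 626 for all listed genes. Genes are listed by their adjusted p, and at low counts a fold change must be larger to pass. The medians of the members and of all listed genes are therefore not like for like. Members made up 4 of the 10 largest rises, 9 of the 25 largest and 11 of the 100 largest.

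**Figure D2:**
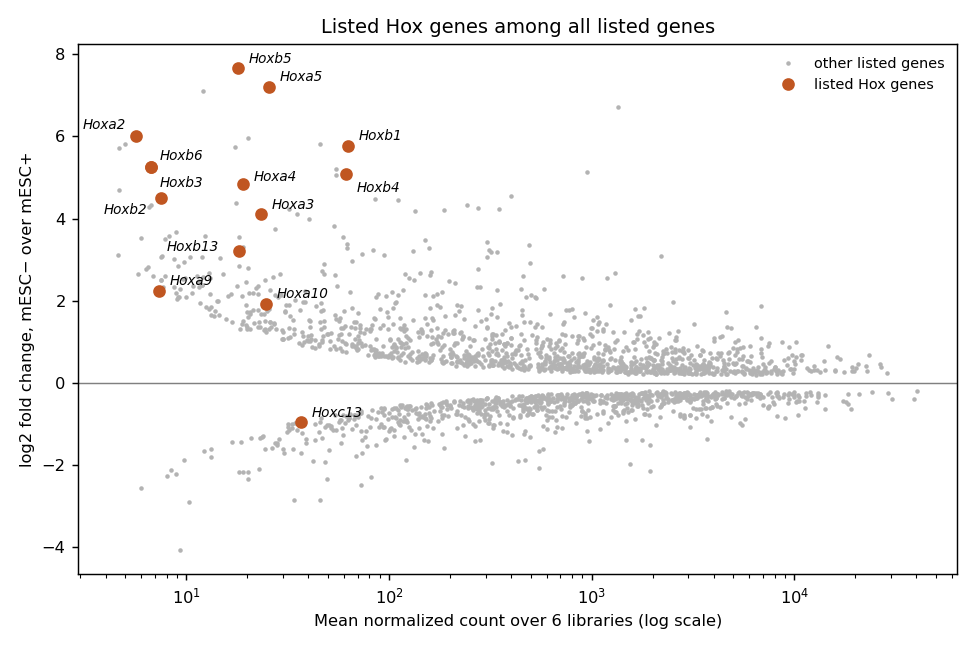
log2 fold change (mESC− over mESC+) of all 2189 listed genes against the mean normalized count over 6 libraries (log scale); orange points are the 14 listed Hox genes, gray points the others. The listed Hox genes lie at the low-count side, and 12 of them at or above 1.93 passed an adjusted p under 0.05.

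Per-library values were not analysed here. The level in each state was therefore derived from the mean count and the fold change, which assumes that the fold change was not shrunken and that both states weigh equally, and these implied levels carry no error of their own. They are normalized counts per library. Beside each fold change stands its standard error, and adjusted p-values are those of DESeq2 in the deposited table.

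In HoxA, the anterior genes Hoxa2 to Hoxa5 rose together. Hoxa5 (ENSMUSG00000038253, chr6:52201754-52204587), which takes part in patterning the neck and in lung development, went from an implied 0.343 to 50.9 counts, a log2 fold change of 7.21 ± 1.23 (SE) with an adjusted p of 7.50e-07. This was the second largest rise in the table. Hoxa4, which acts in the cervical vertebrae, went from 1.28 to 36.6, a log2 fold change of 4.84 ± 0.83. Hoxa3, needed for the thymus and parathyroid, went from 2.55 to 44.0, a log2 fold change of 4.11 ± 0.64. Hoxa2, which gives the second pharyngeal arch its identity, went from 0.173 to 11.2, a log2 fold change of 6.01 ± 1.41 with an adjusted p of 0.00092. The longest Hoxa3 transcript spans chr6:52169062-52213336, and the genes Hoxa4, Hoxa5 and Hoxa6 start inside it. Whether reads were counted by strand is not given in the sources used here, so reads of Hoxa3, its overlapping neighbours and antisense transcripts such as Hoxaas3 could have been shared.

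Further 5′ in HoxA, Hoxa10, known for its part in the uterus and the lumbar spine, went from 10.2 to 39.0 counts with a log2 fold change of 1.93 ± 0.44 and an adjusted p of 0.000543. It had the smallest rise of the 12 and the highest implied mESC+ level among them. Hoxa9, a gene of blood progenitors, was listed with 2.55 and 12.1 counts and a log2 fold change of 2.24 ± 0.82, which did not pass (adjusted p = 0.0872). Hoxa6 and Hoxa7, which stand between Hoxa5 and Hoxa9, were not listed, so the genes called in HoxA do not form an unbroken block.

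In HoxB the block from Hoxb1 to Hoxb6 rose without a gap. Hoxb1 (ENSMUSG00000018973, chr11:96365752-96368256), which specifies rhombomere 4 of the hindbrain, went from an implied 2.24 to 123 counts, a log2 fold change of 5.78 ± 0.61. Hoxb4 (ENSMUSG00000038692, chr11:96318267-96321638), expressed in the posterior hindbrain and used to expand blood stem cells, went from 3.51 to 119, a log2 fold change of 5.08 ± 0.52. Both stood at the lowest adjusted p of the table, 1.92e-14, which 247 genes share. Hoxb5 (ENSMUSG00000038700, chr11:96303336-96306121), a gene of the posterior hindbrain and the enteric neural crest, had the largest log2 fold change of all listed genes, 7.67 ± 1.26, from 0.175 to 35.6 counts with an adjusted p of 1.97e-07.

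The other genes of the HoxB block had lower implied mESC− levels. Hoxb2, which acts with Hoxb1 in facial motor neurons, went from 0.638 to 14.4 counts, a log2 fold change of 4.50 ± 1.29 with an adjusted p of 0.0118, the highest among the 12. Hoxb3, which acts in the hindbrain together with Hoxa3, went from 0.342 to 13.03 with a log2 fold change of 5.25 ± 1.37, and Hoxb6, a gene of the trunk and limb bud, from 0.342 to 13.1 with a log2 fold change of 5.25 ± 1.36. Their adjusted p-values were 0.00431 and 0.00382. Hoxb13, the most posterior HoxB gene, known from the prostate and tail, lies apart from the block. It went from 3.51 to 32.7 counts, a log2 fold change of 3.22 ± 0.61 with an adjusted p of 1.35e-05. Hoxb7, Hoxb8 and Hoxb9, between Hoxb6 and Hoxb13, were not listed.

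For HoxC and HoxD the table lists a single gene. Hoxc13, which acts in hair follicles and nails, had the only negative value among the listed members, with 48.6 counts in mESC+ and 24.8 in mESC−, a log2 fold change of -0.97 ± 0.34 that did not pass (adjusted p = 0.0654). Its implied mESC+ level was the highest of all listed members. The anterior paralogs Hoxc4, Hoxd1, Hoxd3 and Hoxd4 were not listed, whereas their counterparts Hoxa4, Hoxb4, Hoxb1, Hoxa3 and Hoxb3 rose. The difference between the clusters was not tested.

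The order of the fold changes among the anterior genes is not resolved. In 6 of the 12 members that rose, namely Hoxa2, Hoxa5, Hoxb2, Hoxb3, Hoxb5 and Hoxb6, the implied mESC+ level was under 1 count per library. Summed over 3 libraries it came to 0.520 for Hoxa2, to 0.526 for Hoxb5 and to 1.03 for each of Hoxa5, Hoxb3 and Hoxb6. For Hoxb2 it came to 1.91, so the size of these 6 folds turns on a handful of reads. The 95% interval of the log2 fold change of Hoxb5, a normal interval from its standard error, ran from 5.20 to 10.1, and it overlapped the interval of every listed member except Hoxa9, Hoxa10, Hoxb13 and Hoxc13. For all 12 the lower end of the interval was above 1.

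Compared per kb of transcript, the implied mESC− level was highest for Hoxb1, at 58.8 counts per kb, and for Hoxb4, at 46.2. Hoxa5 followed with 27.1, Hoxa4 with 22.9 and Hoxb5 with 18.8. Hoxa3, Hoxa10 and Hoxb13 lay close together at 17.0, 15.2 and 14.8, and Hoxb6, Hoxb2, Hoxb3 and Hoxa2 between 6.29 and 9.88. The genes with the largest fold change were thus not those with the highest level: Hoxb5 had the largest fold change, while 4 listed members had a higher level. In bulk RNA, a few cells with much transcript and many cells with little cannot be told apart.

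**Figure D3:**
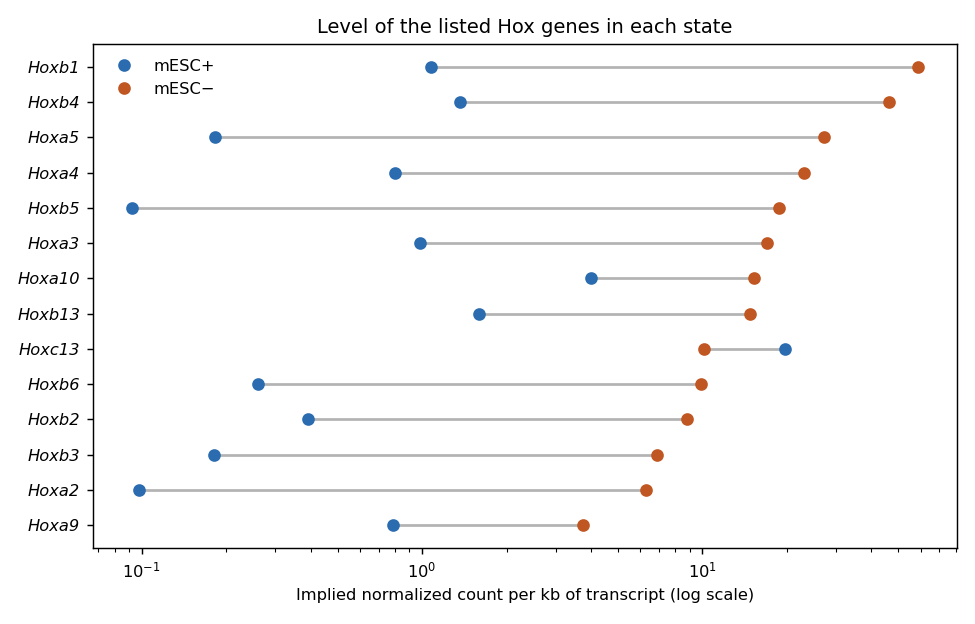
Implied normalized count per kb of the principal transcript (log scale) of the 14 listed Hox genes in mESC+ (blue) and mESC− (orange), sorted by the mESC− level, with no error bars because per-library values were not analysed. Hoxb1 ends highest, at 58.8, and Hoxc13 is the single gene whose mESC− point lies to the left.

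Other listed genes in the Hox windows stood in HoxA (5 genes) and HoxB (2 genes), with 0 in HoxC and HoxD. Hotairm1, a noncoding RNA transcribed against the 3′ end of HoxA, had a log2 fold change of 5.74 ± 1.11, from an implied 0.638 to 34.1 counts, which gives it rank 10 in the table and places it within the range of the anterior HoxA members. Halr1, a noncoding RNA in the flank beyond that end, rose from a much higher level, 732 to 2541 counts, with a log2 fold change of 1.80 ± 0.11. The short annotation Gm27861 on the same side had a log2 fold change of 3.57 ± 0.96. Evx1, a homeobox gene beyond the 5′ end of HoxA, fell by 1.90 on the log2 scale (SE 0.37, adjusted p 2.97e-05), from 66.8 to 17.9 counts, while the 6 listed HoxA members all had positive values. In the HoxB flank beyond Hoxb13, Calcoco2 and Ttll6 rose by log2 fold changes of 1.04 ± 0.11 and 1.38 ± 0.14.

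Of 9 genes for cofactors that bind DNA together with Hox proteins, 4 were listed and 3 rose. Among those that rose, Meis2 had a log2 fold change of 1.92 ± 0.18 and Pbx2 of 1.12 ± 0.09, and Meis1 was listed at 0.77 ± 0.28 without passing (adjusted p = 0.0801). Of 10 genes known to act upstream of Hox genes, 3 rose and 1 fell. Cdx1, a caudal homeobox gene that activates Hox genes in the trunk, stood at 4.26 ± 0.22 and Zic2 at 0.46 ± 0.11, and Gbx2 fell by 0.74 on the log2 scale. Of 22 Polycomb and Trithorax genes, 3 rose and 1 fell: the H3K27 demethylase gene Kdm6b at 0.89 ± 0.11, the Polycomb partners Phf19 at 0.82 ± 0.12 and Mtf2 at 0.39 ± 0.09, and the Polycomb subunit Eed, which fell by 0.45. Over all protein-coding genes, 9.04% were listed and 4.41% rose, and these short lists were not tested against those shares.

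The cells were checked against other markers. Of 7 pluripotency genes, 3 were lower in mESC−, with log2 fold changes of -0.84 (Klf4), -0.33 (Sox2) and -0.28 (Zfp42), and the other 4 were not listed. Of 4 neural and 3 mesoderm markers 0 were listed. Of 4 endoderm markers Gata6 was higher and Sox7 lower, with log2 fold changes of 2.63 and -1.40, and of 3 trophoblast markers Gata3 was higher at 0.84. Over all protein-coding genes, 9.04% were listed and 4.41% were higher, and among all listed genes 34.5% were lower. These short marker lists were not tested against those shares. The part of other cell types in the Hox values was not tested. Since the table does not name the direction of its fold changes, RA targets other than Hox genes set the sign. Of 10 such genes 8 were listed, all with a positive value, and Cyp26a1, which degrades RA, stood at 6.72.

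Chromatin accessibility was measured by ATAC-seq, which reads where a transposase can insert into DNA. There is 1 library per state, so peaks are described without a test, and intervals of shares cover counting error only. The peak lists held 163484 peaks in mESC+ and 141465 in mESC−, and since the fold enrichment of a peak over its surroundings is not on the same scale in 2 libraries, each peak is given its percentile within its own list. The Hox windows held 206 peaks in mESC+ and 192 in mESC−, or 16.0 and 14.9 per 100 kb against 6.00 and 5.19 over the genome. They were mostly weak: the median percentile was 33.5 in mESC+ and 30.1 in mESC−, and 8 and 3 peaks belonged to the strongest 10% of their list.

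By cluster, the window of HoxA held 47 peaks in mESC+ and 51 in mESC−, that of HoxB 58 and 59, that of HoxC 50 and 39, and that of HoxD 51 and 43. Without the flanks the counts were 22 and 27 in HoxA, 35 and 33 in HoxB, 33 and 24 in HoxC, and 32 and 27 in HoxD. The whole mESC− list was also shorter than the mESC+ list, and differences between the clusters were not tested. Of the mESC+ peaks 29.1% (95% exact interval 23.0 to 35.8) had no overlapping peak in mESC−, against 26.1% of all mESC+ peaks. Of the mESC− peaks 22.9% (17.2 to 29.5) had none in mESC+, against 14.1% of all mESC− peaks. The share of mESC− peaks without a partner was 29.4% (17.5 to 43.8) in HoxA and 28.8% (17.8 to 42.1) in HoxB. It was 12.8% (4.30 to 27.4) in HoxC and 16.3% (6.81 to 30.7) in HoxD. Peaks without a partner were weak, and the genome shares were not matched for the strength of the Hox-window peaks. A difference from the genome was therefore not tested. With a −log10 q of at least 10, 1 of 68 mESC+ peaks and 1 of 52 mESC− peaks lacked a partner, against 3.17% and 0.711% of all peaks past that threshold.

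The strong peak found in mESC− alone lies at chr11:96422087-96422309, 56.5 kb downstream of the Hoxb1 start and outside annotated transcripts. Its fold enrichment was 8.46, at percentile 69.2. It holds an RA receptor repeat with a spacer of 1 base, printed here because it lies in this peak, with half-sites in capitals.
HoxB, chr11:96422267-96422279, minus strand: AGTTCAgAGGTCA
The strong peak found in mESC+ alone lies at chr2:74719701-74720002, 7.21 kb upstream of the Hoxd4 start in a Hoxd3 intron, with a fold enrichment of 6.52 at percentile 48.8. Inside HoxA, the highest mESC− peak without a partner lies at chr6:52194847-52194995, 3.18 kb upstream of the Hoxa4 start, with a fold enrichment of 5.98 at percentile 43.0. Inside HoxB, the highest mESC+ peak without a partner covers an exon of Hoxb2 at chr11:96353220-96353451, with a fold enrichment of 6.91 at percentile 54.1, although Hoxb2 RNA was higher in mESC−. Inside HoxC, the highest mESC+ peak without a partner lies 6.97 kb upstream of the Hoxc4 start in an intron of Hoxc4, at percentile 42.5.

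Regions with a peak in both lists numbered 144, and 52 of them, or 36.1%, ranked higher in mESC−, against 40.7% of all shared regions. By −log10 p in place of fold enrichment, 58 ranked higher, or 40.3%, against 39.1%. These shares are near the background. The widest shifts included a fall from percentile 49.7 to 6.70 at the Hoxb5 start and from 70.9 to 22.4 at a region 59.6 kb downstream of the Hoxb1 start. Both Evx1 regions with the largest falls in the HoxA window went from 49.5 to 14.6 and from 40.0 to 14.6, beside the lower Evx1 RNA. Rises included 1.19 to 32.8 in an intron of Hoxa11, 44.8 to 64.4 upstream of Hoxa4, 5.54 to 36.5 at the Hoxd8 start, 4.35 to 32.9 near the Hoxd10 start and 0.67 to 24.8 in an exon of Hoxc11. In the HoxB flanks, rises from 26.3 to 54.3 and from 5.93 to 37.3 were found 34.4 kb downstream of the Hoxb1 start and 79.9 kb upstream of the Hoxb13 start.

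Within 1 kb of the start, fewer of the Hox genes that rose had a peak in mESC− than in mESC+. Hoxa5 and Hoxb1, however, had additional weak peaks in mESC−. A peak within 1 kb of the principal start was present for 26 of 38 members in mESC+, or 68.4%, against 67.8% of all protein-coding genes, and for 22 in mESC−, or 57.9%, against 66.6%. Among the 12 genes that rose, 8 had a start peak in mESC+ and 5 in mESC−. With 1 library each and a shorter mESC− list as a whole, this difference was not tested. Hoxa2, Hoxa4 and Hoxb13 had a start peak in mESC+ alone, at percentiles 19.6, 31.1 and 11.6. Hoxa3, Hoxb2, Hoxb3 and Hoxb6 had none within 1 kb in either list, which depends on that limit. Within 2 kb, 36 of the 38 members had a peak in mESC+ and 33 in mESC−. Beyond 1 kb, Hoxa3 had a shared region, chr6:52211392-52211848, at percentiles 71.6 in mESC+ and 58.9 in mESC−. The strongest peak within 1 kb was then ranked, which need not be the overlapping peak in both lists. Of the 5 with a start peak in both lists, Hoxb1 ranked higher in mESC−, going from percentile 18.8 to 44.8. The other 4 ranked lower: Hoxb5 went from 49.7 to 6.70, Hoxb4 from 64.3 to 43.4, Hoxa5 from 17.8 to 4.64 and Hoxa10 from 10.6 to 9.90. At Hoxa5 these 2 peaks do not overlap, and the mESC− peak that overlaps the mESC+ peak stood at 4.29. Within 1 kb of the Hoxa5 start mESC− had 3 peaks against 1 in mESC+, and the one on the start itself, chr6:52204480-52204664 at percentile 3.03, was found in mESC− alone. Within 1 kb of the Hoxb1 start mESC− had 2 peaks against 1, and the additional peak, chr11:96366261-96366439 in an exon of Hoxb1, stood at percentile 12.3. Over all members 9 of the 21 genes with a start peak in both lists, or 42.9%, ranked higher in mESC−, against 45.8% of protein-coding genes.

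Start peaks of Hox genes were lower in rank than those of other genes. Their median percentile was 35.1 in mESC+ and 35.9 in mESC−, against 79.2 and 78.4 over all protein-coding genes with a start peak, and 0 members reached the strongest 10% in either list. The 4 highest in mESC+ belonged to genes that were not called: Hoxc13 went from 87.4 to 80.1, Hoxc10 from 76.5 to 58.8, Hoxd13 from 72.8 to 58.2 and Hoxd1 from 72.4 to 77.6. In mESC−, Hoxc13 and Hoxd1 were followed by Hoxd10 at 69.0. HoxD had start peaks at 8 of 9 genes in each list although none of its genes is listed, and HoxB at 5 and 4 of 10.

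**Figure D4:**
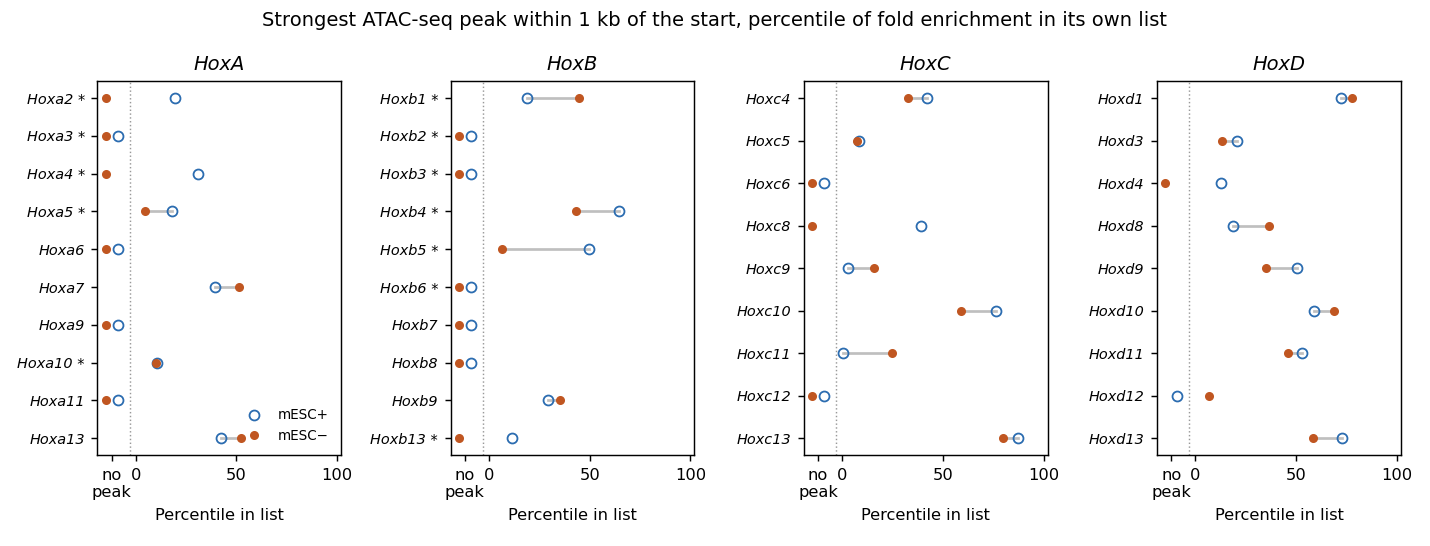
Percentile of fold enrichment, within its own list, of the strongest ATAC-seq peak within 1 kb of each Hox start, in mESC+ (open blue) and mESC− (filled orange), 1 library each; points left of the dotted line have no peak, and asterisks mark genes whose RNA was higher in mESC−. Of the 12 marked genes, Hoxb1 is the 1 whose mESC− point lies to the right.

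The sequence before the start of Hoxb1 is shown because this was the 1 gene among those that rose whose strongest start peak ranked higher in mESC−. The run holds the 250 bases before the start in GRCm38, read on the plus strand, with each CG in capitals.
Hoxb1, chr11:96365502-96365751: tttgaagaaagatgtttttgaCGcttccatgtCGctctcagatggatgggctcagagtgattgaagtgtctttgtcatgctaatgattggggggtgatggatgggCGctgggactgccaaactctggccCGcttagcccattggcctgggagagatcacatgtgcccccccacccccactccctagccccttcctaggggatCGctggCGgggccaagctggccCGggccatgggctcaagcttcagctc

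The Hoxb1 run holds 7 CG pairs at 58.4% GC. The ratio of observed CG pairs to the number given by the base composition was 0.33. Over 300 bases around the start, from 250 before to 50 after it, the median ratio was 0.74 for the 38 members and 0.56 for all protein-coding genes. It was 0.72 for the 12 that rose and 0.78 for the 24 that were not listed. The mESC− peak at the Hoxb1 start covered chr11:96365505-96365778, nearly the whole printed run, and the mESC+ peak chr11:96365543-96365701.

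Exact RA receptor repeats within 300 bp around the summit were found in 5 mESC+ peaks, or 2.43% (0.79 to 5.57), against 0.851% of all mESC+ peaks, and in 6 mESC− peaks, or 3.13% (1.16 to 6.68), against 1.24%. Both intervals contain the genome value. Of the 39 repeats in the windows, 3 lay in a mESC+ peak and 6 in a mESC− peak, and the same 3 were among the 6. Those 3 were in HoxA, and of the 3 found in mESC− peaks alone 2 were in HoxB and 1 in HoxC. Among the printed copies, the HoxA one near Hoxa2 lay in a weak peak of both lists, at percentiles 18.4 and 13.2. The copy downstream of Hoxb1 and that downstream of Hoxc4 lay in or at the edge of mESC− peaks without a mESC+ peak, at percentiles 15.0 and 21.8. The copies near Hoxb3 and Hoxd3 lay in no peak. For 2 of the 6 repeats in peaks the nearest Hox start is that of the gene not analysed here. Near the summit but outside the peak, a repeat with a spacer of 1 lay by a shared peak 25.0 kb downstream of the Hoxb1 start, at percentiles 77.5 and 67.5, and one with a spacer of 2 by a mESC+ peak in an intron of Calcoco2, at percentile 29.2.

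Of the 327 regions with dynamic enhancer activity, 1 lay in the Hox windows, and flanks of 200 kb added none. It covers 600 bp between Hoxb5 and Hoxb4 on chromosome 11 and outside annotated transcripts. Its enhancer probability, a fraction derived from 3 histone marks and input, was 0.0088 in mESC+ and 0.854 in mESC−. The lowest p-value of the authors' permutation test inside it was 0.0107. With 1 ChIP-seq library per mark and state, this p-value does not measure variation between replicates. The region belongs to the 141 regions of higher activity in mESC− and ranks 103 among them by mESC− probability, below their median of 0.911. Its centre is 6.57 kb upstream of the Hoxb4 start, 8.19 kb downstream of the Hoxb5 start and 12.5 kb downstream of that of Hoxb6, all 3 of which rose, and it lies 25.1 kb from the start of Hoxb7, which is not listed.

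Accessibility at this region was high in both states. The mESC+ peak had a fold enrichment of 12.8 at percentile 88.3 and the mESC− peak of 11.8 at percentile 86.6, and the summits lay 137 and 97 bp from the centre. By −log10 p this peak stood at percentile 89.3 in mESC+ and 93.7 in mESC−. The probability thus differed widely between the states while the rank of the peak differed little, 1 library each. A second, weaker peak of both lists, just outside the region, went from percentile 3.93 in mESC+ to 22.2 in mESC− by fold enrichment. Allowing 1 mismatch, 0 tandem repeats with a spacer of 1, 2 or 5 bases were found in the 600 bp, which says only that these letters are not in this window.

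**Figure D5:**
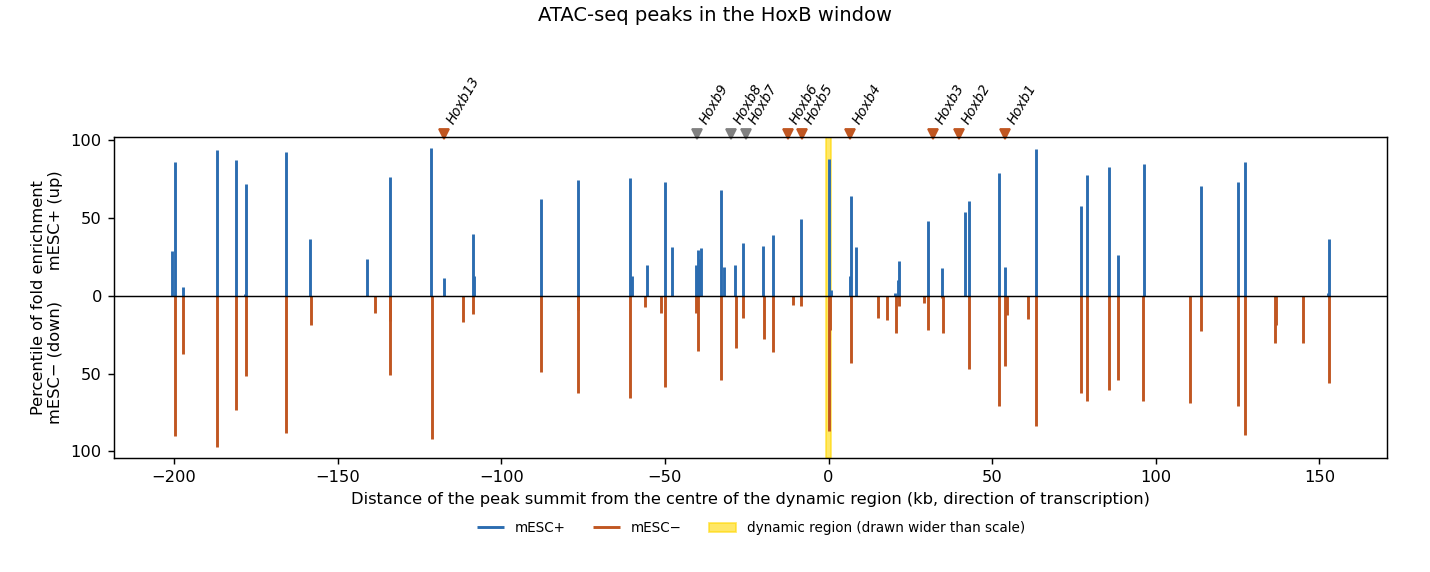
Percentile of fold enrichment of each ATAC-seq peak in the HoxB window, mESC+ upward and mESC− downward (1 library each), against the distance of its summit from the centre of the dynamic region in kb; triangles mark the starts of the 10 HoxB genes, orange where RNA was higher in mESC−. The dynamic region carries peaks at percentiles 88.3 and 86.6 between Hoxb5 and Hoxb4.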

How the data were processed

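For RNA-seq, the authors mapped reads of 3 libraries per state to GRCm38 and compared them with DESeq2. The deposited table gives a mean normalized signal (counts divided by size factors), log2 fold changes, their standard errors and p-values, raw and adjusted, for 2189 genes, and these columns of the authors' comparison were read as they stand, with no test added, since the design planned no other. For ATAC-seq, the authors mapped reads with BWA-MEM, removed duplicates and called peaks in each library with MACS2, and each deposited list has, per peak, the −log10 of its p-value and of its q-value and a fold enrichment. The enhancer probabilities are fractions that the authors derived with CRUP from 8 ChIP-seq libraries, which were not analysed here beyond that list. Versions and options of DESeq2 and MACS2 in these steps, any shift of transposase cut sites and the counting of strands are not given in the sources used here. Read totals are unknown, so no depth is given.

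Members, windows and lists were chosen with earlier results of these data known. Named were all listed members, listed genes in the windows, up to 3 peaks per window and list without a partner, up to 2 shared regions with the largest rise and fall, peaks with repeats and dynamic regions, of which the text gives the widest. Gene starts are those of the principal GENCODE M21 transcript. Sequences came from GRCm38.p6, and peaks were shared at an overlap of at least 1 bp. Where a share is given with an interval, it is an exact 95% interval. Some genes and sequences of the windows and lists are not reported here. Functions were tested on simulated data. Python 3.11.15, pandas 2.3.3, SciPy 1.17.1 and pysam 0.24.0 were used.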

Additional observations from a re-analysis of the deposited data

How the results depend on the processing

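The number of Hox genes higher in mESC−, 12, was 11 at an adjusted p under 0.01, 13 with every listed gene, 8 with a mean count of at least 10 and 12 with a log2 fold change of at least 1, and the median log2 fold change was 4.84 with a mean count of at least 10. No fit could be repeated without a library because per-library counts were not analysed here. No paired analysis was possible because only the fitted comparison, with no values of numbered libraries, was used.

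Peak numbers depend on the threshold. Of the Hox-window peaks, 68 in mESC+ and 52 in mESC− remained with a −log10 q of at least 10, and 40 and 36 among the 50000 peaks with the largest −log10 p. Without the flanks the density was 25.2 and 22.9 peaks per 100 kb, against 16.0 and 14.9 with them. The percentage without a partner fell to 1.47 and 1.92 for peaks with a −log10 q of at least 10. Start peaks with a −log10 q of at least 10 were present for 9 and 7 genes. With any protein-coding transcript start, an alternative chosen after seeing the data, 29 and 25 genes had one. Repeats numbered 3 in mESC+ when whole peaks were searched, and 16 in mESC+ and 20 in mESC− with at most 1 mismatch. The other 18 of 31 alternatives stayed within the limit set for them. For counts this was 1.5 times the count, and for shares the exact interval. For the median log2 fold change it was a standard deviation of the listed members' values, which is wide and not an interval of the median.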
